A study of Mus musculus with 3 samples.

Results

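In 48 protein-coding genes on autosomes 1 to 19, fewer than 0.25 of the allelic exome counts came from the maternal C57BL/6J (B6) allele in each of 3 libraries, and the remainder came from the paternal CAST/EiJ (CAST) allele. They were chosen by these values among 16190 autosomal coding genes with at least 50 allelic counts in every library, out of 30212 genes listed in all. The share of B6 counts is the allelic imbalance (AI), that is, maternal over total allelic counts at the single nucleotide polymorphisms (SNPs) of a gene. The *Vmn2r* pheromone receptor genes and 7 chromosomal intervals were left out by the rule, and 53 genes were found without this exclusion. Since the rule used the AI of every library, the AI values of these genes are a description and carry no test, and only differences between libraries were tested.

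B6 counts were seldom lacking altogether. Only 4 of the 48 genes had no B6 count in any library, and 17 had an AI under 0.1 in all libraries. The median AI of the 48 genes over all libraries was 0.114. The upper limit of the Wilson 95% interval was under 0.25 in all libraries for 35 of the 48 genes. In 37 genes, the CAST counts per SNP were above the median of other coding genes in every library, as in 26.8% of the other coding genes. The 48 genes had a median of 5 listed SNPs against 15 in other coding genes. The minimum of 50 counts asks for more counts per SNP in a gene with few SNPs. The same counts chose the genes, so nothing is read from the share with high CAST counts. Since B6 counts were seldom lacking altogether, the genes are called here coding genes with a low B6 share.

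An F1 animal carries 1 chromosome set of each parent, so DNA of a gene that is present once per set holds both alleles in equal amounts. Coding genes also exist in families of near-identical members, which arise by duplication and differ in number between mouse strains, and in processed pseudogenes, which are reverse-transcribed messages inserted elsewhere in the genome. A sequencing read that comes from such a copy carries nearly the same letters as one from the gene, and the allele counts at a SNP depend on where the aligner places it.

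The libraries were made from DNA of sorted donor-derived lymphocytes of female F1 mice, offspring of C57BL/6J mothers and CAST/EiJ fathers, with 1 library per animal. Hematopoietic stem cells (HSCs) of Ly5.2 donors under 5 weeks of age were injected into sublethally irradiated recipients of 5 to 16 weeks, which carried the Ly5.1 marker, and cells were taken 12 weeks later. The library of the polyclonal animal E6.2 (50 HSCs of donor 6) was made from 58000 B220+IgM+ B cells, which the labels place in the spleen and the methods in the bone marrow. The libraries of the monoclonal animals E6.43 (1 HSC of donor 6) and E15.10 (1 HSC of donor 15) were made from 250000 and 177000 CD4+CD8- T cells of the thymus. Donors and recipients were both B6 and CAST F1 animals, so DNA of residual recipient cells would hold both alleles too. Cell type and clonality changed together between E6.2 and the T cell libraries and cannot be told apart. With 1 library per animal there is no replicate error, and the intervals and tests given below cover counting error only. SNPs near each other share read pairs, so intervals for whole genes are too narrow.

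The libraries held 19471576, 13036005 and 10863972 allelic counts (E6.2, E6.43 and E15.10, the order used throughout), and the median AI of autosomal genes lay between 0.537 and 0.538. The cell labels were compared with gene segments that are removed by V(D)J recombination. At *Trdv4*, a delta segment deleted when the T cell receptor alpha locus rearranges, there were 20.8, 4.74 and 4.33 counts per 1000000 autosomal counts. At the 1 listed *Ighj* gene, a joining segment that rearrangement in B cells can use up, there were 5.39, 15.5 and 16.1. *Trdc*, *Trdv5* and *Ighd*, chosen for the same check, were not listed. *Ighm*, a constant region gene chosen with them, had 2.59, 4.42 and 4.89 (49, 56 and 52 counts). *Trac* had 4.55, 5.05 and 2.07. The B cell library was thus the highest at *Trdv4* and the lowest at *Ighj*, but it was also the lowest at *Ighm*. The low value was therefore not particular to the joining segment, and the labels are not settled by these few counts. The 95 listed *Ighv* segments together had 5163, 5933 and 2204, with the lowest value in the T cell library E15.10.

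The reference sequence around the SNPs of 9 of the genes is shown first, because the windows differ in whether they have another copy in the genome. Each window holds 100 bases of the plus strand of GRCm38, and the capital marks the SNP, which is base 51 counted from the left end and is printed with the B6 reference base. The CAST base is not used here.

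In *Odc1*, *Glo1*, *Duxf3* and *Rpl21*, a second place of the reference had the same window except for the SNP base. *Odc1* (ornithine decarboxylase, which makes the first polyamine) is shown at chr12:17549956-17550055 and its copy in the processed pseudogene *Gm7993* at chr5:95975360-95975459, with the difference T51C. There were 4 such copies of this window. *Glo1* (glyoxalase, which detoxifies methylglyoxal) is shown at chr17:30600072-30600171, and its copy in the processed pseudogene *Gm13443* lies on the minus strand of chr2:35340584-35340683 and is written in the orientation of *Glo1*, with A51G. *Rpl21* (a protein of the large ribosomal subunit) is shown at chr5:146835607-146835706, and 1 of its 7 copies, the pseudogene *Gm13370* within *Pnpla7* at chr2:24986269-24986368, had T51C. *Duxf3* (a double-homeobox transcription factor gene) is shown at chr10:58232052-58232151 and its neighbour *AW822073* at chr10:58224373-58224472, again with T51C.
Odc1: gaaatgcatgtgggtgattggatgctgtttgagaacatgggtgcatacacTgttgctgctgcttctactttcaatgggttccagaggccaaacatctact
Gm7993: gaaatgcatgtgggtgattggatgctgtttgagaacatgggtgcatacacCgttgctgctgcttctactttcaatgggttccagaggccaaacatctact
Glo1: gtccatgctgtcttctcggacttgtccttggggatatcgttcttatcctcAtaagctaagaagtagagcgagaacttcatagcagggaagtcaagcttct
Gm13443: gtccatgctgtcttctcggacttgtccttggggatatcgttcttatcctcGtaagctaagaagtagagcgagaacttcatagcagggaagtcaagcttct
Rpl21: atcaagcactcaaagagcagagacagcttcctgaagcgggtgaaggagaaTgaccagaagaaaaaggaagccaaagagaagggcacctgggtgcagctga
Gm13370: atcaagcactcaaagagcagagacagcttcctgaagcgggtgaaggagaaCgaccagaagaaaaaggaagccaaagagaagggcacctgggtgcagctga
Duxf3: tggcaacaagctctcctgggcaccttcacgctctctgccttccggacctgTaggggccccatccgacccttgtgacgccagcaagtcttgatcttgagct
AW822073: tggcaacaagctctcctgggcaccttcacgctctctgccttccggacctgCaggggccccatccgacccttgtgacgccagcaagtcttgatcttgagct

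In *Nanp*, *Cphx3* and *Vmn1r100*, the whole window, SNP base included, occurred again elsewhere. *Nanp* (a phosphatase of sialic acid synthesis) at chr2:151030264-151030363 was matched by the processed pseudogene *Gm6741* at chr17:91237454-91237553 on the minus strand. *Cphx3* (a homeobox gene) at chr14:26234459-26234558 was matched in *Cphx1* at chr14:25955089-25955188 and in *Cphx2* at chr14:26094846-26094945. The *Cphx2* place also lies within the annotated span of *Cphx3* itself. *Vmn1r100* (a type 1 vomeronasal pheromone receptor) at chr7:20418578-20418677 was matched in *Vmn1r148* at chr7:22414219-22414318.
Nanp: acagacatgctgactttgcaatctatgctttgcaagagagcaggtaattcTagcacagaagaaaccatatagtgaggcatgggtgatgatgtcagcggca
Cphx3: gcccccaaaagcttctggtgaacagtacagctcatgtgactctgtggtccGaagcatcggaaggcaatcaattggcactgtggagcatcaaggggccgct
Vmn1r100: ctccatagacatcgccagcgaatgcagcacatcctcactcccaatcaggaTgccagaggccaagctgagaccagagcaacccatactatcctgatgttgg

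*Ugt1a1* (the enzyme that conjugates bilirubin with glucuronic acid) at chr1:88212605-88212704 and *Mroh2a* (a gene of the maestro heat-like repeat family) at chr1:88259517-88259616 had no copy of either kind.
Ugt1a1: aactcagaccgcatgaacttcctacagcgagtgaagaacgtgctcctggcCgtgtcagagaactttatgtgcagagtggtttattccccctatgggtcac
Mroh2a: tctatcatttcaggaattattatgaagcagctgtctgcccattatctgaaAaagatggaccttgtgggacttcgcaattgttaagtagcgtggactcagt

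B6 counts at the printed SNPs ranged from 0 to 500. At the *Cphx3* SNP, 0 of 91, 0 of 63 and 0 of 69 counts were B6, and at the *Vmn1r100* SNP, 0 of 86, 0 of 58 and 0 of 18. At the *Nanp* SNP, 0 of 142, 3 of 106 and 4 of 46 counts were B6. The *Rpl21* SNP, whose window had 1 exact copy beside the 7 that differ, had 500 of 2955, 265 of 2004 and 171 of 1302 B6 counts. The *Duxf3* SNP, with no exact copy, had 31 of 645, 31 of 420 and 23 of 558. The *Odc1* SNP had 99 of 671, 86 of 493 and 102 of 430 B6 counts, and the *Ugt1a1* SNP had 90 of 604, 43 of 412 and 39 of 180. All these SNPs were under an AI of 0.25 in every library.

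The 48 genes lay on 14 chromosomes, with 12 on chromosome 14, 7 on chromosome 4 and 5 on chromosome 1. In 8 groups of genes within 1 Mb of each other there were 23 of the genes, and 25 stood singly. Predicted genes, which carry a provisional number instead of a functional name, made up 24 of the 48 (50%), against 4.71% of the genes tested. The others included 1 ribosomal protein gene, 1 metabolic enzyme of the Ugt family, 1 major urinary protein gene, 1 type 1 vomeronasal receptor gene and 1 leukocyte surface receptor gene of the *Cd300* family. Olfactory receptor, histone and keratin genes were not among them. The intervals left out by the rule include an olfactory receptor cluster, and the share of these families among the genes tested is not given. Nothing is therefore read from their absence.

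**Figure D1:**
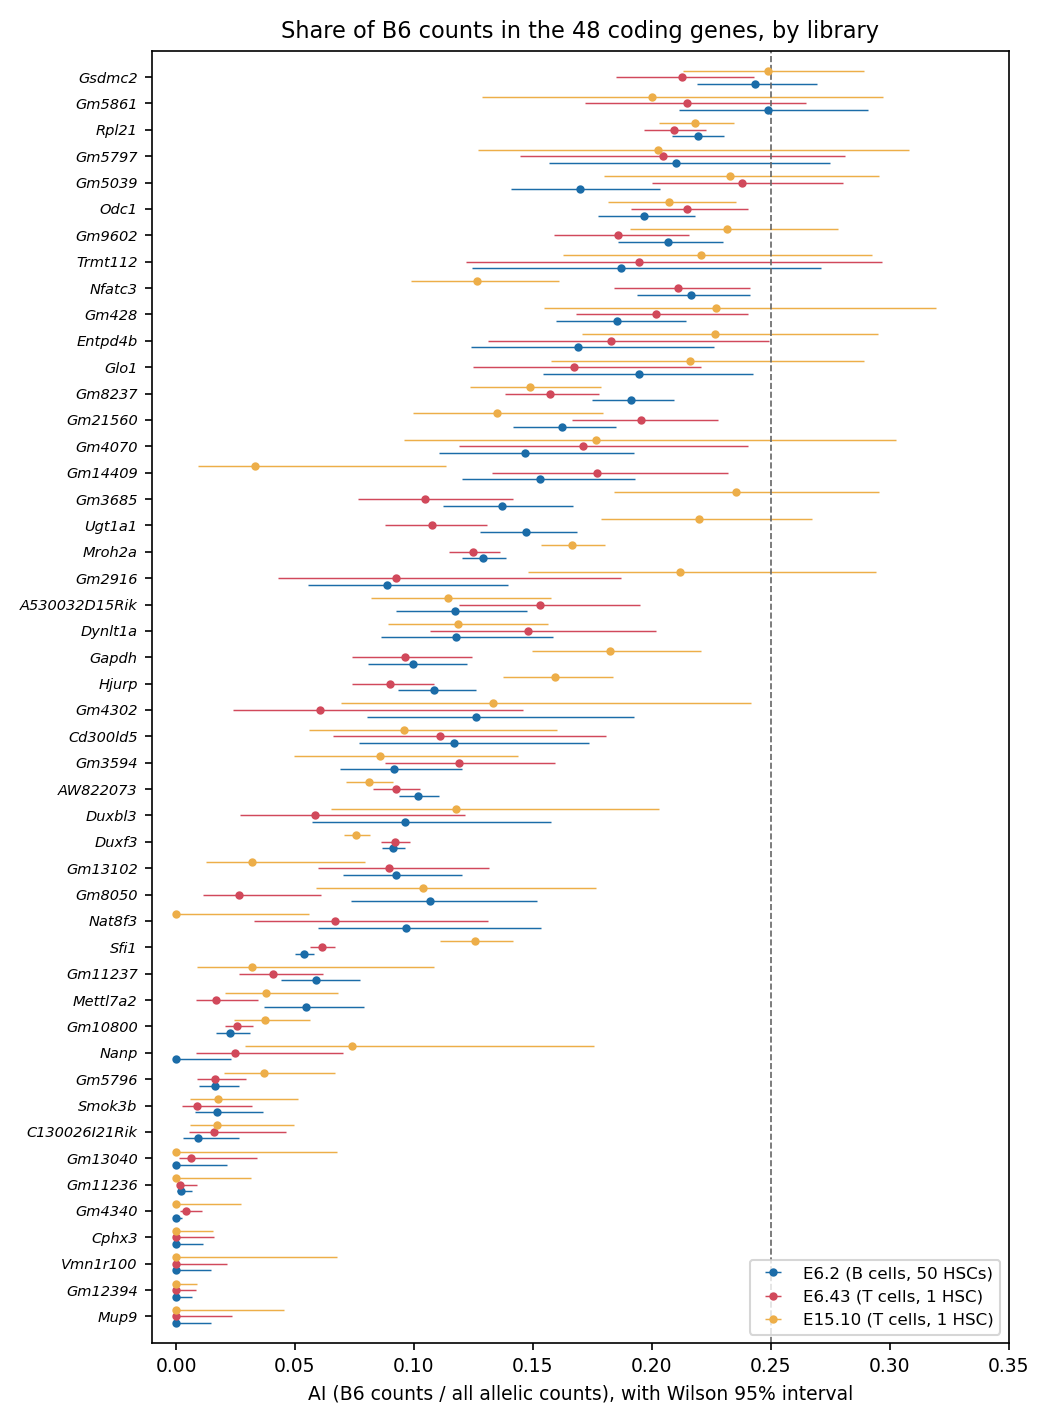
The AI of each of the 48 genes (rows, ordered by AI over all libraries) is plotted for the libraries E6.2, E6.43 and E15.10, with points for B6 counts over all allelic counts and bars for Wilson 95% intervals. All points lie left of the dashed limit of 0.25 that chose the genes, and 4 genes lie at 0 in all libraries. The rule holds every value under 0.25, so the closeness of the values of a gene in the 3 libraries follows in part from it.

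The genes with no B6 count in any library were *Gm12394*, *Mup9*, *Vmn1r100* and *Cphx3*. In *Gm12394*, 0 of 552, 0 of 463 and 0 of 437 counts were B6, which allows a share of up to 0.00543, 0.00648 and 0.00686 when 3 counts of the total are taken as the limit of a count of 0 (the upper Wilson limits were 0.00691, 0.00823 and 0.00871). In *Mup9*, a gene of the major urinary proteins that bind pheromones, 0 of 258, 0 of 160 and 0 of 81 counts were B6, which by the same limit of 3 counts allows up to 0.0116, 0.0188 and 0.037. *Vmn1r100* had 0 of 257, 0 of 174 and 0 of 53, and *Cphx3* 0 of 329, 0 of 238 and 0 of 246. CAST counts were thus present at these genes in all 3 animals and B6 counts were below the detection limit of this depth.

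A further group of 10 genes had B6 counts per SNP under 0.1 times those of other coding genes in every library, as had 0.0322% of the other coding genes. For this comparison, the median count per SNP of a gene, taken over SNPs with 10 or more counts in every library, was divided by the median over 141779 SNPs of other coding genes, which was 53, 36 and 27 B6 counts and 43, 29 and 23 CAST counts. The 10 genes were *C130026I21Rik*, *Gm11237*, *Gm11236*, *Gm13040*, *Smok3b*, *Nat8f3*, *Gm4340*, *Duxbl3*, *Entpd4b* and *Mettl7a2*. In *Gm4340*, 0 of 1466, 4 of 948 and 0 of 137 counts were B6. In *Gm11236* there were 2 of 1052, 1 of 638 and 0 of 118, and in *Gm13040*, a gene related to the preferentially expressed antigen in melanoma family, 0 of 174, 1 of 163 and 0 of 53. All 3 genes were nearly without B6 counts.

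*Smok3b*, of the sperm motility kinase family, had 6 of 352, 2 of 225 and 3 of 168 B6 counts. *C130026I21Rik* had 3 of 331, 3 of 186 and 3 of 173. *Mettl7a2*, of a family of methyltransferase-like proteins, had 25 of 459, 7 of 412 and 10 of 265. The AI of these 3 genes stayed under 0.06 in every library.

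The other 4 genes of this group had no or few B6 counts at their typical covered SNP and B6 counts at other SNPs, except *Nat8f3* in E15.10, which had none. *Gm11237* had 46 of 784, 20 of 492 and 2 of 63 B6 counts, *Nat8f3* 15 of 155, 7 of 105 and 0 of 65, and *Duxbl3* 13 of 135, 6 of 103 and 10 of 85. *Entpd4b*, a nucleoside diphosphohydrolase gene, had an AI of 0.169, 0.183 and 0.227 over all SNPs, but 0.0147 over all libraries when only SNPs at least 300 bases apart were summed. Over the 14 genes with few or no B6 counts, the median CAST count per SNP was 2.73, 3.29 and 2.11 times that of other coding genes, and 13 of them had an exact copy of at least 1 SNP window. *C130026I21Rik* had no copy at its 1 covered SNP.

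B6 counts of the order of those in other genes were found in another 13 of the 48 genes. They were *A530032D15Rik*, *Ugt1a1*, *Mroh2a*, *Hjurp*, *Rpl21*, *Duxf3*, *Odc1*, *Gm5039*, *Gm9602*, *Gm5797*, *Gsdmc2*, *Dynlt1a* and *Glo1*, in which B6 counts per SNP were at least 0.5 times those of other coding genes in every library. Their median B6 level was 0.887, 0.889 and 1.19 times and their median CAST level 5.77, 6.34 and 5.22 times that of other coding genes, and 12 of the 13 had more than 2 times the CAST level in every library. Of 15544 other coding genes, 76.7% had at least 0.5 times the B6 level in every library and 2.43% more than 2 times the CAST level. In 12 of these genes the low AI went with high CAST counts, at B6 counts of at least 0.5 times those of other genes. The 14 genes above were short of B6 counts. The exception was *Rpl21*, with CAST levels of 1.33, 0.862 and 1.28 at its typical SNP. Both levels come from the counts that chose and grouped the genes. A low AI at such B6 counts requires high CAST counts, so the contrast largely follows from the grouping. It is given without a test, and nothing is read from the shares of other coding genes.

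The B6 level was at or above the median of other coding genes in every library in 4 genes, namely *Odc1*, *Glo1*, *Ugt1a1* and *Mroh2a*. *Odc1* had 145, 114 and 90.5 B6 counts and 591.5, 416.5 and 346 CAST counts per SNP, which is 2.74, 3.17 and 3.35 times and 13.8, 14.4 and 15.0 times the levels of other genes. *Glo1* had 60, 39 and 32 B6 counts and 248, 194 and 116 CAST counts at its 1 covered SNP. *Dynlt1a*, a light chain of the dynein motor, had 36, 32 and 42 B6 counts and 270, 184 and 312 CAST counts at its 1 SNP, and its CAST count was highest in E15.10, the library with the fewest counts. The AI of *Odc1* was 0.197, 0.215 and 0.207, that of *Glo1* 0.195, 0.167 and 0.216, and that of *Dynlt1a* 0.118, 0.148 and 0.119.

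**Figure D2:**
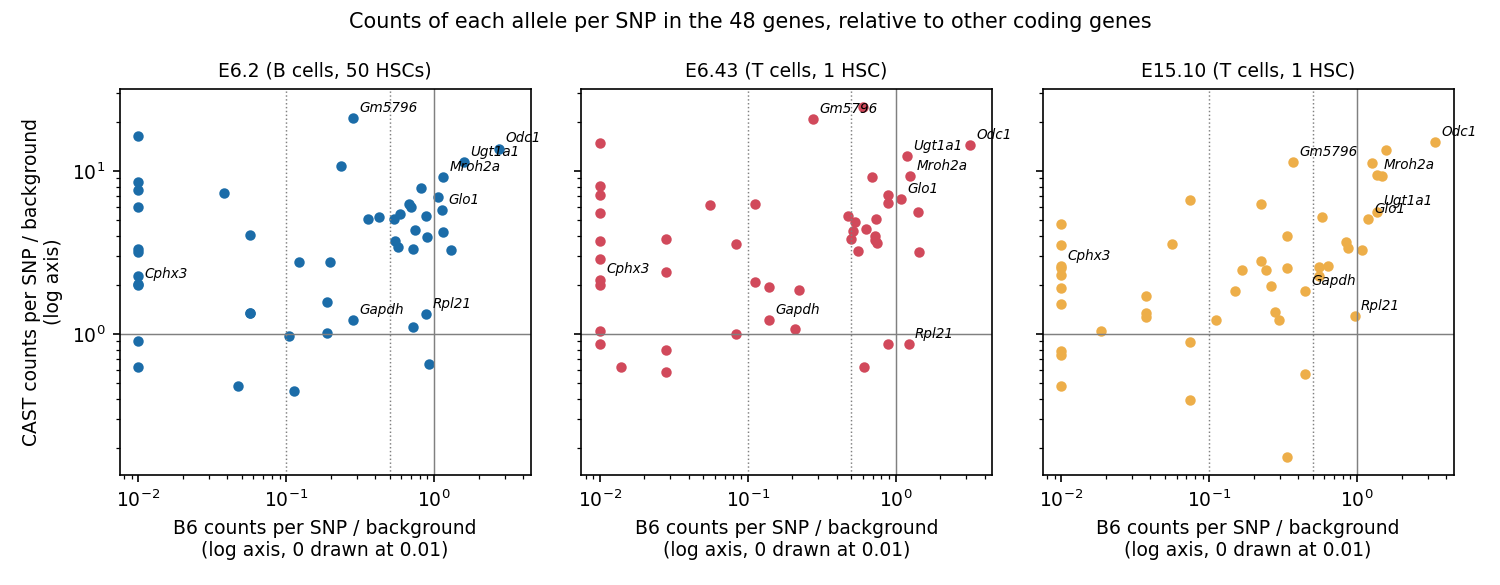
For each of the 48 genes (points) and each library (panels), the median B6 count per SNP (horizontal, log axis, 0 drawn at 0.01) is plotted against the median CAST count per SNP (vertical, log axis), both divided by the median over SNPs of other coding genes. Solid lines mark 1 and dotted lines 0.1 and 0.5 of the B6 level. In every library, *Odc1*, *Glo1*, *Ugt1a1* and *Mroh2a* lie at B6 levels above 1 with CAST levels above 5, *Rpl21* lies near 1 on both axes, and a column of points at the left has no B6 count at the typical SNP.

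Over the 48 genes, the median B6 level was 0.283, 0.25 and 0.25 times and the median CAST level 3.82, 3.81 and 2.5 times that of other coding genes. By the mean over all listed SNPs, covered or not, the median B6 level was 0.509, 0.47 and 0.364 times and the median CAST level 5.56, 6.00 and 3.33 times. By the level at covered SNPs, CAST was above the background median in every library in 37 of the 48 genes (77.1%), against 26.8% of the other coding genes, and more than 2 times in 26. It was below the background median in every library in 3. In total, again as the mean over all listed SNPs, the median gene had 147, 99.9 and 48.5 allelic counts per SNP against 49.5, 34 and 27.5 in other coding genes, a ratio of 2.96, 2.94 and 1.76. In E15.10 the ratio was 1.01 when only genes with at least 5 SNPs were taken. These depths were above the 95th percentile of other coding genes in 24, 24 and 9 of the 48. All these levels come from the counts that chose the genes. A low AI in genes with few SNPs and a minimum of counts favours high CAST counts per SNP. The levels are therefore a description, and nothing is read from the shares of other coding genes.

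The 3 genes *Ugt1a1*, *Mroh2a* and *Hjurp* lay next to each other on chromosome 1 and shared high CAST counts. *Hjurp* encodes the chaperone that deposits the centromeric histone CENP-A. Their covered SNPs and 1 SNP of *Ugt1a6a* made a stretch of 18 SNPs at chr1:88212655-88277475, 64.8 kb long, and all 18 had an AI under 0.25 in every library. *Mroh2a* contributed 11 of them, *Hjurp* 4 and *Ugt1a1* 2. The gene sums were 169 of 1149, 86 of 800 and 73 of 332 B6 counts in *Ugt1a1*, 648 of 5024, 460 of 3680 and 492 of 2958 in *Mroh2a*, and 150 of 1381, 95 of 1058 and 153 of 961 in *Hjurp*. All 3 genes had their highest AI in E15.10.

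Across this stretch the B6 counts were near those of its surroundings and the CAST counts were several times higher. The median SNP of the stretch had 56, 40 and 36.5 B6 counts, against 61, 44 and 20 at 117 SNPs within 250 kb on either side, a ratio of 0.918, 0.909 and 1.83. It had 390, 275 and 177.5 CAST counts against 64, 38 and 18, a ratio of 6.09, 7.24 and 9.86. In E15.10, the B6 counts were thus above those of the flanks as well. None of the 117 flanking SNPs was under 0.25 in all libraries, and their median AI was 0.506, 0.526 and 0.5. The nearest covered SNP on the left, in *Dnajb3*, lay 7.40 kb away with an AI of 0.551, 0.462 and 0.650, and the nearest on the right, in *Trpm8*, lay 47.9 kb away with 0.486, 0.574 and 0.658. No window of a covered SNP of these 3 genes had a copy in GRCm38. No second transcript with at least 90% identity was found for them, in a search that left out overlapping genes, such as *Ugt1a6a* for *Ugt1a1*.

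**Figure D3:**
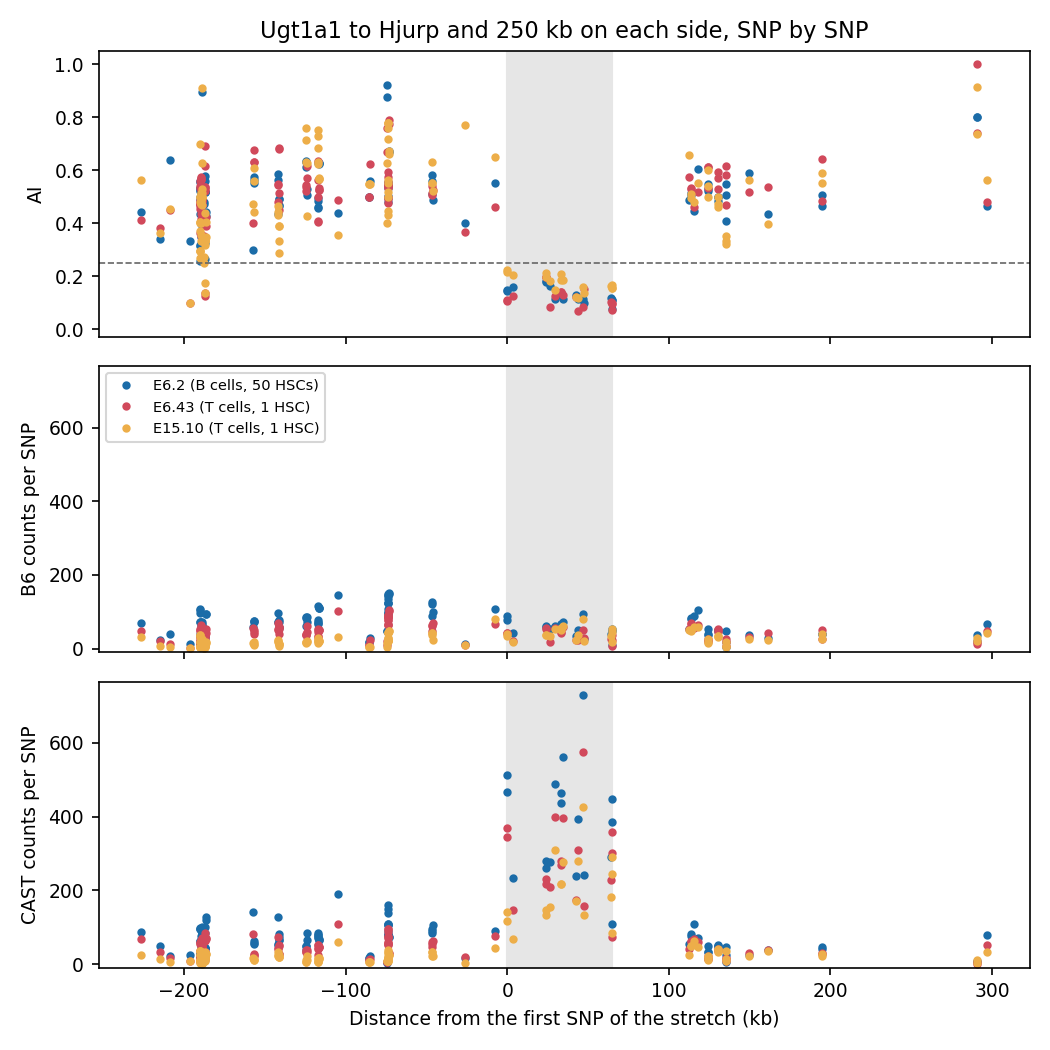
AI (top), B6 counts (middle) and CAST counts (bottom) of single SNPs are plotted against the distance in kb from the first SNP of the stretch from *Ugt1a1* to *Hjurp*, in 3 libraries, with 250 kb on each side and the stretch in grey. Within the stretch, AI lies below the dashed limit of 0.25, CAST counts per SNP have a median of 390, 275 and 177.5 and B6 counts a median of 56, 40 and 36.5.

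The tandem pair *AW822073* and *Duxf3* on chromosome 10 held the deepest homeobox members. *Duxf3* had 1156 of 12665, 810 of 8799 and 691 of 9109 B6 counts over 17 covered SNPs, and *AW822073* had 494 of 4853, 303 of 3282 and 238 of 2941 over 14. The AI was close in both genes, at 0.0913, 0.0921 and 0.0759 in *Duxf3* and 0.102, 0.0923 and 0.0809 in *AW822073*. The transcripts of the pair were 98.1% identical, and each was the best match of the other.

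The 9 predicted genes at the start of chromosome 14 belonged to a large set of similar genes. They lay in 2 groups, from *Gm2916* to *Gm9602* at chr14:3884172-4785002 and from *Gm8237* to *Gm5797* at chr14:5857918-7332395. *Gm5796* had 1 SNP with 15 of 927, 10 of 617 and 10 of 270 B6 counts, and its CAST level was 21.2, 20.9 and 11.3 times that of other coding genes. *Gm8237* had 381 of 1991, 207 of 1318 and 95 of 638 B6 counts over 11 covered SNPs, but its AI over all libraries was 0.267 when SNPs at least 300 bases apart were summed. The AI of the other 7 lay between 0.0266 in *Gm8050* (E6.43) and 0.235 in *Gm3685* (E15.10). All genes of these groups except *Gm2916* had more than 70 further genes with transcripts at least 90% identical, so the place of their counts is uncertain.

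The 3 genes *Gm11237*, *Gm11236* and *Gm428* at chr4:73622984-73687558 differed from each other although their transcripts were 99.7% identical to those of other genes of the family. *Gm11236* was nearly without B6 counts (above). *Gm428* had 146 of 787, 95 of 471 and 22 of 97, and 76.9% of its counts came from 1 SNP. At this SNP, 12 of 617, 4 of 356 and 2 of 69 counts were B6, and the remainder of the gene had an AI of 0.788, 0.791 and 0.714. The low B6 share of *Gm428* thus rested on a single SNP.

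Single SNPs also carried the low AI in well-known genes. Of the 48 genes, 4 had 1 listed SNP, and another 22 had more than 50% of their counts at 1 SNP. In *Gapdh*, the glycolytic enzyme, the SNP with the most counts had 11 of 652, 5 of 426 and 7 of 331 B6 counts, whereas the remaining SNPs together had an AI of 0.457, 0.447 and 0.613. There were 146 genes with transcripts at least 90% identical to *Gapdh*, and 142 of them were pseudogenes. In *Rpl21*, 2 of 12 covered SNPs had a low AI. The deeper had 500 of 2955, 265 of 2004 and 171 of 1302 B6 counts and the other 140 of 1512, 92 of 1028 and 82 of 703. The other 10 *Rpl21* SNPs had between 15 and 197 counts in each library and an AI between 0.411 and 0.732.

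*Sfi1*, which encodes a centrin-binding protein of the centriole, was split along its length. The 5 SNPs at chr11:3179441-3188892 were low in all libraries, and the deepest of them had 67 of 7017, 63 of 5191 and 30 of 974 B6 counts. The other 10 covered SNPs, at chr11:3131998-3164654, had no more than 129 counts each, and their AI lay between 0.375 and 0.864 apart from 1 value of 0.203. *Nfatc3*, a calcineurin-activated transcription factor of lymphocytes, had 5 covered SNPs with AI values under 0.37 in every library. Its deepest SNP had 69 of 597, 58 of 412 and 9 of 232 B6 counts. In *Gsdmc2*, a gasdermin gene, the deepest SNP had an AI of 0.313, 0.265 and 0.222 and the remainder 0.175, 0.155 and 0.276, so the deepest SNP was the higher of the pair in the E6 libraries and the lower in E15.10.

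When the deepest SNP of each gene was left out, 28 of the 48 genes still had at least 50 counts in each library, and 21 of these were still under 0.25 in all libraries. Among the 395 SNPs listed for the 48 genes, 110 had no counts, and 191 had at least 10 in each library. Of these 191, 145 (75.9%, Wilson 95% interval 69.4 to 81.4%) were under 0.25 in all 3 libraries and 6 were balanced (0.4 to 0.6) in all 3. In 33 genes every covered SNP was low, among them 22 of the 37 genes with at least 2 covered SNPs, and in 15 genes low and other SNPs were mixed. In other coding genes, 0.933%, 1.29% and 1.13% of the SNPs were under 0.25. By annotation, 126 of the 191 lay in coding sequence, 38 in untranslated regions, 20 in other exons and 7 outside the exons of the annotation used.

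**Figure D4:**
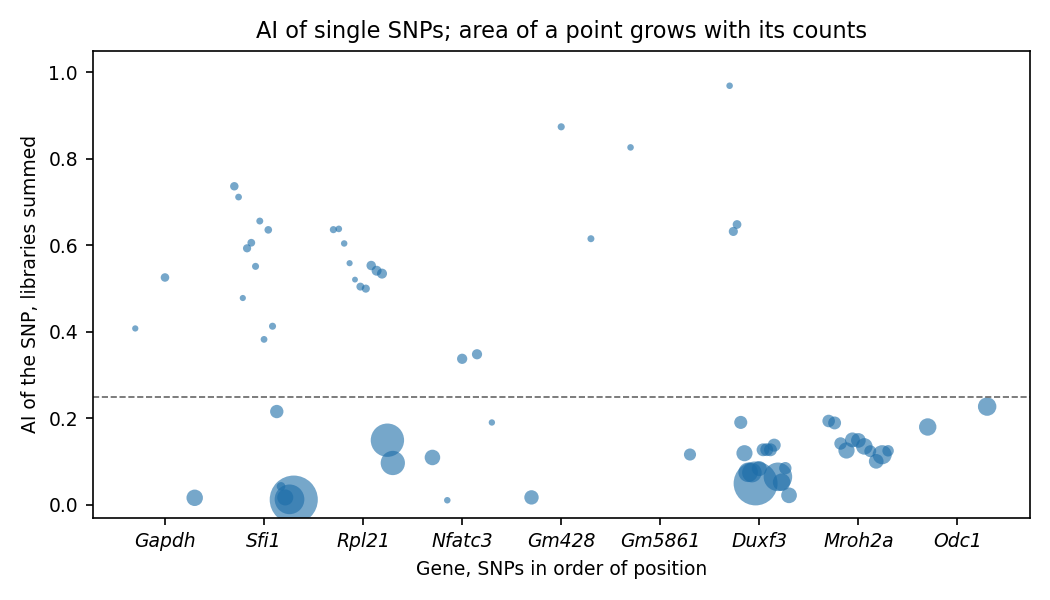
The AI of single SNPs with at least 10 counts in each library, with the counts of the 3 libraries summed, is plotted for 9 genes, in order of position within each gene, and the area of a point grows with its counts. *Gapdh*, *Sfi1*, *Rpl21*, *Gm428* and *Gm5861* combine deep SNPs below the dashed limit of 0.25 with shallower SNPs above it, whereas all points of *Mroh2a* and *Odc1* lie below it.

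The remaining genes lay between these patterns or were small. *Gm10800* had 40 of 1750, 70 of 2713 and 21 of 563 B6 counts, with CAST levels 10.7, 24.9 and 6.24 times those of other coding genes. Its count in E6.43 was above that in the deeper library E6.2. *Cd300ld5*, of a family of myeloid surface receptors, had 20 of 171, 13 of 117 and 12 of 125 B6 counts, and *Gm13102*, a neighbour of the *Pramel* genes, had 48 of 520, 22 of 246 and 4 of 125. *Trmt112*, a cofactor of several methyltransferases, had 20 of 107, 15 of 77 and 34 of 154, so its count was highest in the library with the fewest counts. *Nanp* had 0 of 163, 3 of 121 and 4 of 54, *Gm14409* 58 of 379, 40 of 226 and 2 of 60, and *Gm4302* 17 of 135, 4 of 66 and 8 of 60. The AI of *A530032D15Rik*, whose transcript matched *Sp140* at 98.5% identity, was 0.117, 0.153 and 0.114.

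Near the limits of the rule, the genes formed a continuous series. Just inside the limit of 0.25 were *Gsdmc2* with an AI of 0.243, 0.213 and 0.249, *Gm5861* with 0.249, 0.215 and 0.2, and *Gm5039* with 0.17, 0.238 and 0.233. Just outside were *Synb* with 0.209, 0.184 and 0.258, *Hmgb1* with 0.169, 0.143 and 0.259, and *Gm14393* with 0.167, 0.199 and 0.261. Just inside the minimum of 50 counts were *Gm4070*, *Gm13040* and *Vmn1r100* with 51, 53 and 53 counts in E15.10, and just outside were *Defa31*, *Olfr945* and *Gm13057* with 41, 44 and 46. In single libraries, with no interval or family left out, 224, 229 and 84 coding genes were under 0.25. The paper reports a large deletion common to all E6 samples, and how many of these genes lie in it was not examined. The rule asks for all 3 libraries, so AI in 1 library alone is not described by these genes.

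The question whether the low B6 share differed between animals was addressed by comparing the libraries in pairs. The rule did not use the differences, but it held each AI under 0.25 in the same libraries, which limits the differences that can occur, so the shares called are given beside those of all genes and nothing is read from the comparison. Fisher's exact test was applied to the B6 and CAST counts at SNPs at least 300 bases apart, with Benjamini-Hochberg adjustment over all autosomal genes with at least 50 counts in both libraries and a threshold of 0.05. Such a test compares 2 libraries and not the conditions. Between E6.43 and E6.2, which share a donor, 1 of 43 genes was called, against 0.806% of the 19480 genes tested. This was *Rpl21*, with an AI of 0.144 in E6.43 and 0.182 in E6.2 (Fisher's exact test, Benjamini-Hochberg adjusted p = 0.048). Comparing E15.10 with E6.2 called 4 of 40 genes, against 5.4% of 17381 genes tested. Comparing E6.43 with E15.10 called 5 of 39, against 5.22% of 17141.

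The genes called with E15.10 differed in both directions. At these spaced SNPs, the AI of *Sfi1* was 0.115 in E15.10 against 0.0434 in E6.2 (Fisher's exact test, adjusted p = 7.15e-26) and 0.0493 in E6.43 (adjusted p = 7.22e-19). *Mroh2a* had 0.161 in E15.10 against 0.124 in E6.2 (Fisher's exact test, adjusted p = 0.00133) and 0.117 in E6.43 (adjusted p = 1.63e-04). *Nfatc3* was lower in E15.10, at 0.0957 against 0.174 in E6.2 (Fisher's exact test, adjusted p = 0.0205) and 0.184 in E6.43 (adjusted p = 0.0125). *Gapdh* was called only against E6.2 (0.149 against 0.0772, Fisher's exact test, adjusted p = 0.00568), and *Ugt1a1* only between E6.43 and E15.10 (0.104 against 0.217, adjusted p = 0.0143), as was *Duxf3* (0.0744 against 0.0531, adjusted p = 4.68e-04). Some of these sums, such as those of *Sfi1* and *Gapdh*, join SNPs of unlike AI in shares that differed between libraries. In *Gapdh*, the deepest SNP had 11 of 652 B6 counts in E6.2 and 7 of 331 in E15.10. The other spaced SNP had 47 of 99 and 57 of 99. A call for a gene is therefore not a difference in AI at its single SNPs, which was not tested. The comparisons share libraries and are not independent of each other.

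None of these calls was made when the counts were shrunk by the spread between genes of a library (beta-binomial model), under which 0 of the 43, 40 and 39 genes tested were called in the 3 pairs, against 0%, 0.961% and 0.951% of all genes tested. With all SNPs of a gene summed, all 48 genes were tested and Fisher's exact test called 2, 13 and 10, against 14.7%, 20.4% and 20.3% of all genes. With a minimum of 10 counts it called 0 of 48, 4 of 47 and 5 of 47, against 0.664%, 4.75% and 4.77%. With that model, 0, 1 and 1 of them had an unadjusted p under 0.05, against 5, 14 and 10 with Fisher's exact test on the counts as they are. A missing call does not show that the values were equal. In 31 of the 48 genes the AI ranged by less than 0.05 over the libraries and in 4 by more than 0.1.

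The second question was whether the genes shared features of the reference that the rule did not use. An exact second copy of the 100-base window was found for 84 of the 191 covered SNPs (44.0%), and a copy that differed at the SNP base alone for 23 (12.04%). At least 1 kind of copy was found for 37 of the 48 genes (77.1%), against 6.48% of 15544 other coding genes. Over the SNPs of other coding genes the shares were 1.03% and 0.598%. In 56 genes chosen by the mirrored rule (AI over 0.75 in all libraries), the shares were 21.6% and 8.81% of 329 SNPs, with a copy in 61.8% of the 55 genes with a covered SNP. Second copies were thus found beside a low share of either allele, more often per SNP in the genes with a low B6 share. SNPs of a gene are not independent, and these shares carry no test.

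**Figure D5:**
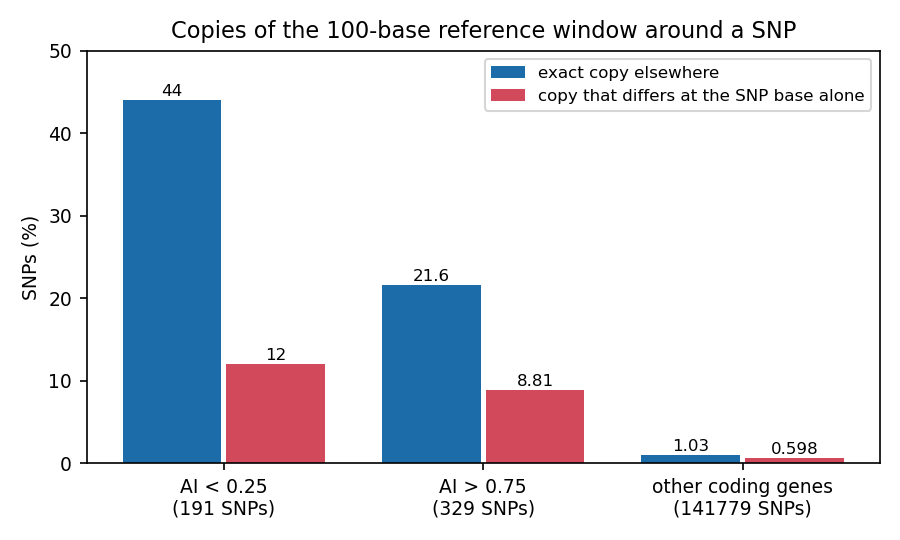
Bars give the percentage of SNPs with at least 10 counts in each library whose 100-base GRCm38 window occurs again in the genome exactly (blue) or with another base at the SNP alone (red), for the 48 genes with an AI under 0.25, the 56 genes with an AI over 0.75 and other coding genes. Exact copies reach 44.0% in the first group, 21.6% in the second and 1.03% in other genes.

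The AI of SNPs was also set beside the kind of copy, as a description, since the genes were chosen for a low AI. In the 48 genes, the 73 SNPs with exact copies alone had a median AI of 0.0219, 0.0233 and 0.0255, the 23 SNPs with a copy that differs at the SNP base 0.148, 0.155 and 0.146, and the 95 SNPs without a copy 0.148, 0.138 and 0.155. Within the 8 genes in which some SNPs had an exact copy and others had none, the median AI was 0.0971, 0.132 and 0.0667 at 17 SNPs with and 0.209, 0.227 and 0.226 at 54 SNPs without. In other coding genes, the median AI of SNPs with exact copies alone was 0.549, 0.545 and 0.545, that of SNPs without a copy 0.544, 0.545 and 0.543, and 10.8%, 11.6% and 12% of them were under 0.25, compared with 0.808%, 1.15% and 0.992% of SNPs without a copy. Most SNPs with an exact copy outside the 48 genes were thus not low. In the same class, 12.8%, 13.1% and 14.2% had an AI over 0.75.

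Transcripts gave a similar picture. A transcript of another gene with at least 90% identity over at least 50% of the length was found for 40 of the 48 genes (83.3%), 67.9% of the genes of the mirrored rule and 7.25% of other coding genes. Genes that overlap the gene itself were left out of this search. For example, *A530032D15Rik* lies within *C130026I21Rik* and was not considered for it. The best such gene was protein-coding for 34 of the 40 and lay on the same chromosome for 35. It was *Entpd4* for *Entpd4b*, *Mup19* for *Mup9*, *Cd300ld4* for *Cd300ld5*, *Dynlt1c* for *Dynlt1a*, *Gsdmc3* for *Gsdmc2* and *Smok3c* for *Smok3b*, all tandem or family members. Processed pseudogenes were the best match of *Gapdh*, *Odc1* and *Nanp*. No such transcript was found for *C130026I21Rik*, *Ugt1a1*, *Mroh2a*, *Hjurp*, *Rpl21*, *Nfatc3*, *Glo1* and *Trmt112*.

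For 6 genes, no covered SNP had a window copy of 50 or 100 bases and no second transcript was found outside overlapping genes. They were *C130026I21Rik*, *Ugt1a1*, *Mroh2a*, *Hjurp*, *Nfatc3* and *Trmt112*. GRCm38 is a B6 genome, and no CAST genome was searched. The nearest measured coding genes that were not in the set were balanced on both sides of 10 genes, on 1 side of 20 and on neither side of 18. *Gapdh*, for example, lay between *Nop2* with an AI of 0.497 to 0.542 over the libraries and *Ncapd2* with 0.560 to 0.589. *Odc1* lay between *Nol10* with 0.532 to 0.597 and *Hpcal1* with 0.552 to 0.612, and so was balanced on 1 side. Around *Gapdh* and *Odc1* the low B6 share did not extend to the next measured coding gene outside the set. Elsewhere such neighbours were low or nearly so. *Gm3476* beside *Gm21560* had 0.117 to 0.275, *Gm3460* beside *Gm3594* and *Gm8050* 0.260 to 0.319, and *Gvin1* beside *Gm4070* 0.236 to 0.349.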

How the data were processed

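Exome reads (Agilent SureSelect, paired ends) of 3 libraries were aligned and assigned to alleles by the authors with ASEReadCounter*, and cutadapt 1.14, Trim Galore, STAR 2.5.4a, SAMtools and GATK on GRCm38 are named in the submitters' processing notes. Exome settings and the handling of duplicate reads are not given in the sources used here. The authors deposited the count of each allele per gene and SNP, without replicates. A table of the whole series, with counts, the fraction AI and its limits for genes with at least 90 counts, served as an alternative, and its deposited p-value and call columns (other values, tests by the authors) were not used.

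AI was computed as B6 over total counts, with Wilson 95% intervals. Gene types came from GENCODE M21, which held 29309 of the 30212 genes. Windows were searched in GRCm38 on both strands, and transcripts were aligned with megablast (BLAST+ 2.17.0). Fisher's exact test (SciPy 1.17.1, two-sided, Benjamini-Hochberg adjustment) was also run on simulated counts. These were drawn with counting error only, so that run does not show how the test behaves where the data hold further spread. The 48 genes, the lists and the tests were chosen with earlier results of these data known. Named were the 25 genes with the most counts, the ends of groups of at least 3, the 3 highest, lowest and most variable in AI, the best covered of each family and the 3 nearest each limit on either side. Further genes, and the depth groups of 0.1 and 0.5, were chosen after their values were seen.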

Additional observations from a re-analysis of the deposited data

How the results depend on the processing

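The number of genes found was 17 with an AI limit of 0.1, 136 when only both E6 libraries had to be low (all 48 among them), and 25 without the deepest SNP of each gene (21 shared). The E6 libraries also share the large deletion that the paper reports. It lay outside what was examined here. The number of genes lay between 34 and 69 under the other settings. In the mean counts per SNP, settings tried after seeing the data included SNPs with at least 10 counts with B6 and CAST apart, which moved the B6 level from 0.509 to 0.283 (E6.2) and from 0.47 to 0.25 (E6.43) and the CAST level from 6.00 to 3.81 (E6.43). With at least 5 SNPs per gene, the total level in E15.10 was 1.01 instead of 1.76. The share of low SNPs was 83.7% instead of 75.9% with at least 30 counts. Over all listed SNPs, 37.5% had an exact window copy (42.8% with 50 and 32.7% with 150 bases), 9.62% a copy differing at the SNP, and 44.0% of covered SNPs an exact copy (the last pair chosen after seeing the data). Of the single genes, 32 moved by less than their interval with SNPs 300 bases apart and 16 by more, and Gm8237 (0.267) and Gsdmc2 (0.266) then passed 0.25.

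Fisher's exact test called 157, 938 and 895 genes in all in the 3 pairs (in the order of the text), 3008, 3911 and 3872 with all SNPs, and 0, 167 and 163 with beta-binomial shrinkage. Of the genes described, 1 of 43, 4 of 40 and 5 of 39 tested were called, 0 of each with shrinkage, 2, 13 and 10 of 48 with all SNPs, and 0 of 48, 4 of 47 and 5 of 47 with at least 10 counts.

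No paired analysis was possible because each group had 1 library. Windows with the CAST base and protein identity were not run, since neither was at hand, and transcripts took the place of proteins. E15.10 had the fewest counts in all.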
